A study of Mus musculus with 14 samples.

Results

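Transcripts of 8 genes for cofactors of HOX proteins were followed in cultured mouse bone marrow cells: Meis1, Meis2 and Meis3 of the MEIS family, Pbx2, Pbx3 and Pbx4 of the PBX family, and Pknox1 and Pknox2, which code for PREP1 and PREP2. The 8 genes were chosen by symbol and by family, with earlier results of these data known. Each has a row among the 55367 gene symbols of both count tables. Messenger RNA had been sequenced in 14 libraries of wild-type lineage-negative marrow cells, which are depleted of mature blood cells and grown with SCF, IL6 and IL3. Cells of the first experiment received a lentivirus made from the vector pSMAL with either luciferase (LUC, n = 3) or the mutant SETBP1-D868N (n = 3). In the second, all cells carried SETBP1-D868N and received DMSO, a solvent (n = 4), or 2.5 µM PF-9363 over 4 days (n = 4), an inhibitor of MYST histone acetyltransferases. The second experiment has no luciferase arm, and mouse age, sex and strain are not given in the sources used here. The labels do not say whether replicates were separate transductions or animals, so the p-values measure the spread between these libraries.

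MEIS, PBX and PREP proteins carry a homeodomain with a 3-amino-acid loop extension, from which the class takes the name TALE. PBX proteins bind DNA together with HOX proteins, and MEIS or PREP proteins join them through a shared amino-terminal region. MEIS1 is a regulator of blood stem cells and, with HOXA9, a well-known driver of acute myeloid leukemia in mice. PREP proteins compete with MEIS for PBX. The MYST enzymes acetylate histones at active genes, and menin and KMT2A are known upstream regulators of HOXA genes and Meis1.

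First-experiment libraries held 60147266 to 68730322 counts and second-experiment libraries 7083731 to 10359093. A count of 0 thus allowed up to 0.0447 to 0.0505 CPM (counts relative to library totals scaled by trimmed means of M-values, TMM) in the first experiment and 0.272 to 0.467 CPM in the second, counting error only. LUC library 1 stood apart, with a chi-square per degree of freedom of 27.4 and 28.1 to LUC 2 and LUC 3, which differed from each other by 2.29. The tables were normalized separately, so no difference between experiments was tested. Markers of mature cells were present despite the lineage-negative label: the summed level of 6 neutrophil markers was 20600 to 21300 CPM with LUC and 11100 to 13500 with SETBP1-D868N, and Ly6g, a neutrophil surface marker, was at 21.4 ± 2.37 CPM (SD, n = 3) with SETBP1-D868N, the group where it was lower. Summed levels of 6 T and NK cell markers were at most 1.44 CPM in every library. In bulk samples, fewer cells of a type and less RNA per cell cannot be told apart.

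Meis1 rose 2.13-fold with SETBP1-D868N, and Pbx3 and Pbx4 rose with it, while Pbx2 fell slightly. The nearly silent Meis2 was called lower on few counts, and the other 3 genes were not called. All 8 genes passed the filter on low counts, Meis2 only through the LUC libraries, where it was higher. Of the 8 genes, 5 had an edgeR adjusted p under 0.05, 3 higher and 2 lower. Over all 15794 genes tested, 47.2% were called, 24.5% higher and 22.7% lower, so the share of members called, 62.5%, stands against a background that is itself large. The median log2 fold change of the 8 genes was 0.021, against 0.0043 over all genes, and their median absolute change was 0.36 against 0.19. The share called and these medians count Meis2. Without it the middle absolute change is that of Pbx2, 0.16, so a larger change of the members than of all genes is not shown. The 2 groups did not overlap for 4 members that were higher (Meis1, Pbx3, Pbx4 and Pknox1) and 2 that were lower (Meis2 and Pbx2), against 29.4% and 27.3% of all genes. Among all calls 51.9% were higher, or 62.1% with scaling by library size alone.

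**Figure D1:**
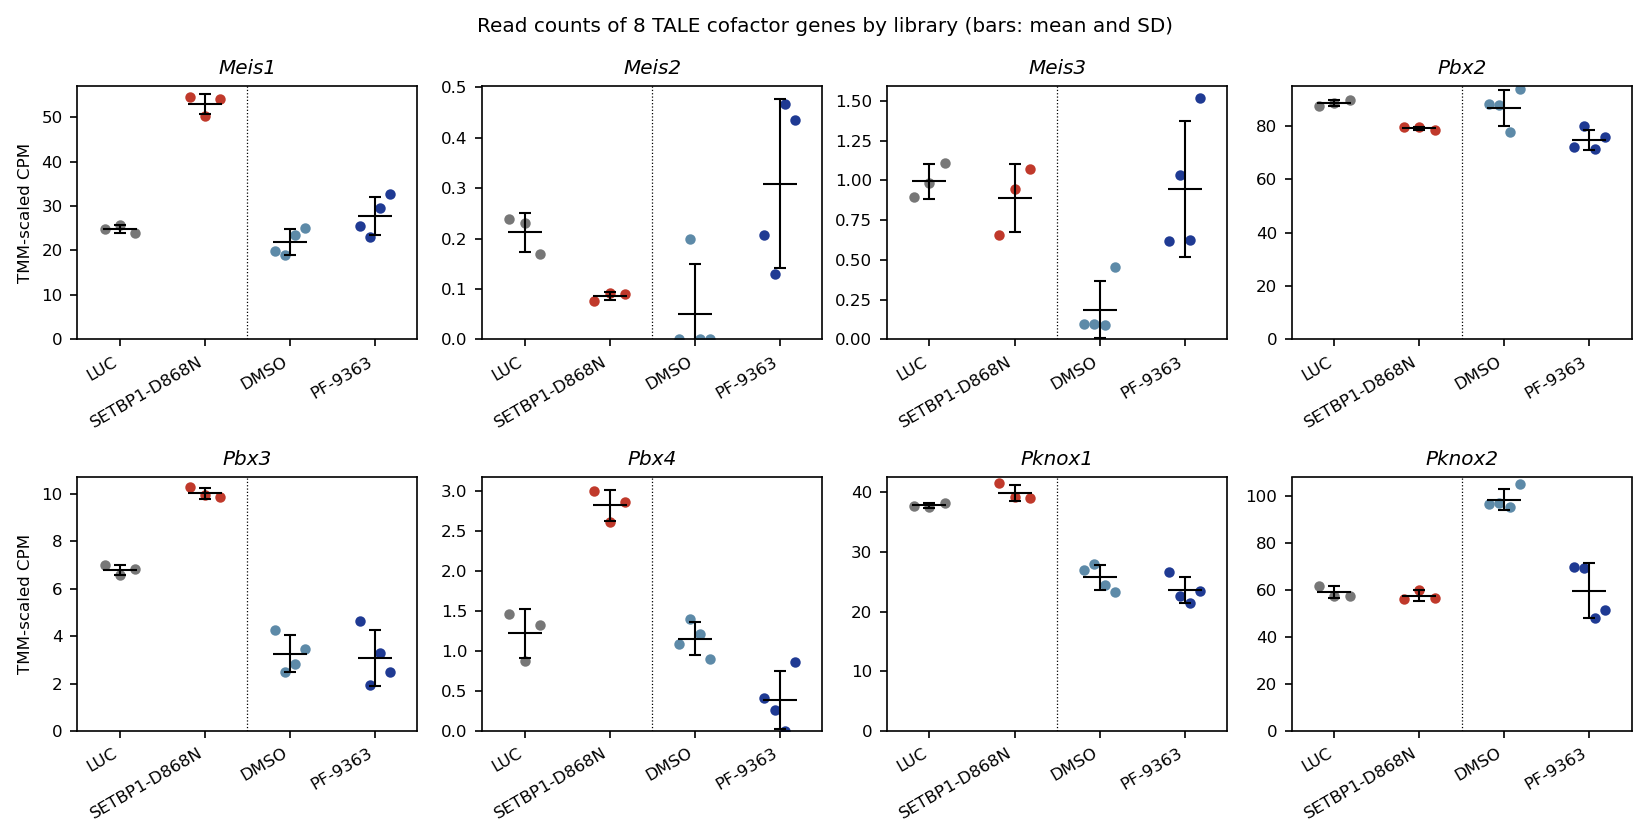
TMM-scaled CPM of each gene (vertical axes from 0, 1 panel per gene) in the 14 libraries, with points for libraries and bars for the mean and SD of each group, cut at 0; the dotted line separates the 2 experiments. Meis1, Pbx3 and Pbx4 lie higher in all 3 SETBP1-D868N libraries than in any LUC library, and Pknox2 lies lower in all 4 PF-9363 libraries than in any DMSO library.

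Meis1 (ENSMUSG00000020160.18, minus strand, chr11:18879817-19018985, GRCm38) codes for the partner that joins HOX and PBX proteins on DNA. LUC libraries 1 to 3 had 1673, 1669 and 1425 counts, or 24.9, 25.6 and 24.0 CPM. SETBP1-D868N libraries 1 to 3 had 3571, 3290 and 3583 counts, or 54.4, 50.3 and 54.0 CPM. The lowest SETBP1-D868N library was thus well above the highest LUC library. The group means of 24.9 ± 0.813 and 52.9 ± 2.26 CPM (SD, n = 3) gave a log2 fold change of 1.09 (SE 0.043, 95% interval 1.00 to 1.18) and an edgeR adjusted p of 6.98e-09. By p-value it was number 27 of the 15794 genes, while 3.32% of genes had a larger absolute log2 fold change. The calls of Meis1, Pbx2, Pbx3 and Pbx4 held without LUC 1.

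Pbx4 (ENSMUSG00000031860.17, plus strand, chr8:69832491-69872292), the least expressed of the 3 PBX genes described here, had 98, 57 and 79 counts with LUC and 197, 171 and 190 with SETBP1-D868N. These counts correspond to means of 1.22 ± 0.307 and 2.83 ± 0.196 CPM (SD, n = 3), with no overlap between the groups. The log2 fold change was 1.21 (SE 0.17, edgeR adjusted p 9.90e-05), close in size to that of Meis1 on a level of a few CPM, and 2.43% of genes changed more.

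The sequences just before the GENCODE M21 starts of the 2 genes that rose most are shown because both moved by about the same factor. Each is the part of the RefSeq promoter window (GRCm38.p6, 250 bases before to 50 after the start) that lies outside the GENCODE M21 gene, written 5′ to 3′ on the gene's strand, with the CCAAT box in capitals (ATTGG where it is on the other strand).
Meis1, chr11:19018986-19019219, minus strand: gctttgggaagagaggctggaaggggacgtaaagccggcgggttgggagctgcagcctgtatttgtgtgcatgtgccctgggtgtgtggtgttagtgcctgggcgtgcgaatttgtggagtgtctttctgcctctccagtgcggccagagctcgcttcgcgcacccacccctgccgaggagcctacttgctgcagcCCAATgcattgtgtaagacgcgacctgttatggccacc
Pbx4, chr8:69832374-69832490, plus strand: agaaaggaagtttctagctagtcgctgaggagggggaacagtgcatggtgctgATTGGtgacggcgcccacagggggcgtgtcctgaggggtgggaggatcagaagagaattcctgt

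Promoter windows were in the table for 5 of the 8 genes: Meis1, Meis2, Meis3, Pbx2 and Pbx4. They were searched on both strands for TGACAG, the core site of MEIS and PREP proteins, and for TGATNNAT, a composite site of HOX and PBX, where neither string contains the other. None of the 5 windows of 300 bases held either string, while 19.3% and 9.04% of 27025 promoters did. CCAAT, which 37.9% of all promoters held, was in the windows of Meis1, Meis2 and Pbx4. In Meis1 it began 54 bases before the RefSeq start, and in Pbx4 it occurred 197 and 30 bases before the RefSeq start. The sequences printed above end at the GENCODE start, which lies further upstream, so the Pbx4 site at 30 bases is not in them. The GC content of these windows was 58.3% for Meis1 and 59.3% for Pbx4, against 51.0% for Meis2, 66.7% for Meis3, 76.0% for Pbx2 and a median of 52.7% over all promoters.

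Pbx3 (ENSMUSG00000038718.15, minus strand, chr2:34171457-34373142), whose protein is a frequent partner of HOXA9 and MEIS1 in leukemia, was measured at 7.00, 6.57 and 6.84 CPM with LUC. With SETBP1-D868N it was at 10.3, 9.94 and 9.85 CPM. The groups did not overlap and differed by a log2 fold change of 0.56 (edgeR adjusted p 1.62e-05, SE 0.062), a 1.47-fold rise.

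Pbx2 (ENSMUSG00000034673.14, plus strand, chr17:34591266-34597400), a widely expressed PBX gene, was at 87.6, 88.6 and 89.9 CPM with LUC and at 79.6, 79.6 and 78.6 CPM with SETBP1-D868N. It fell by 0.16 on the log2 scale (SE 0.027, edgeR adjusted p 3.88e-04), a change about as small as that of the typical gene, since 55.5% of genes changed more. Its annotation shares 227 exon bases (6.24%) with Gpsm3, a neighbour on the same strand that fell by 0.35 (SE 0.035, edgeR adjusted p 6.24e-06) in the same libraries. How reads in the shared bases were assigned is not given in the sources used here.

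Meis2 (ENSMUSG00000027210.20, minus strand, chr2:115863064-116065839), the MEIS paralog of heart, limb and brain development, was close to silent. Its counts were 16, 15 and 10 with LUC and 5, 6 and 6 with SETBP1-D868N, or 0.212 ± 0.0382 and 0.0861 ± 0.00861 CPM. The log2 fold change was −1.29 (SE 0.39, 95% interval −2.15 to −0.43, edgeR adjusted p 0.0175). The call rests on few counts, and it was lost with DESeq2 (adjusted p 0.0684), without LUC 1 (edgeR adjusted p 0.0590), without LUC 2 (0.0558) and without SETBP1-D868N 1 (0.0544). Meis2 passed the filter on low counts only through the LUC libraries, where it was higher, so the filter itself favoured a lower call.

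Meis3 (ENSMUSG00000041420.18, plus strand, chr7:16175090-16186504), the paralog best known from hindbrain development, had 60, 64 and 66 counts with LUC and 43, 62 and 71 with SETBP1-D868N. The groups overlapped, and the log2 fold change of −0.16 had a 95% interval of −0.60 to 0.29 (edgeR adjusted p 0.562). Its sign changed without SETBP1-D868N 1, to 0.018.

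The PREP genes were not called. Pknox1 (ENSMUSG00000006705.13, plus strand, chr17:31564734-31607693), which codes for the ubiquitous PREP1, was at 37.7, 37.5 and 38.3 CPM with LUC and at 41.5, 39.1 and 39.0 CPM with SETBP1-D868N. Its groups did not overlap, which was so for 56.7% of all genes tested, and the log2 fold change was 0.077 (95% interval −0.0043 to 0.16, edgeR adjusted p 0.111). With scaling by library size alone it was 0.13 and passed (edgeR adjusted p 0.0151). Pknox2 (ENSMUSG00000035934.16, minus strand, chr9:36890982-37147407), which codes for PREP2, was at 62.0, 57.7 and 57.5 CPM with LUC and at 56.0, 60.3 and 56.7 CPM with SETBP1-D868N. The log2 fold change of −0.034 had a 95% interval of −0.12 to 0.053 (edgeR adjusted p 0.514), and its sign changed with library-size scaling and without LUC 1.

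With PF-9363, Pknox2 and, by a small amount, Pbx2 were lower, Meis1 was slightly higher, and Pbx3 and Pknox1 were not called. Meis2, Meis3 and Pbx4 were below the filter on low counts in this shallower experiment and were not tested. Of all 13456 genes tested 76.0% were called, 36.6% higher and 39.4% lower, so the 3 calls among the 5 tested members (60.0%) were no larger a share than the background. The median log2 fold change was −0.12 over the 5 genes and −0.038 over all genes, and the median absolute change was 0.21 against 0.65. Of the 5 genes, 0 were higher and 1 was lower with no overlap of the groups, against 34.0% and 36.3% of all genes. With scaling by library size alone the median gene moved by −0.23 on the log2 scale, which left 36.2% of calls on the higher side in place of 48.1%, so changes here are relative to the scaling.

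**Figure D2:**
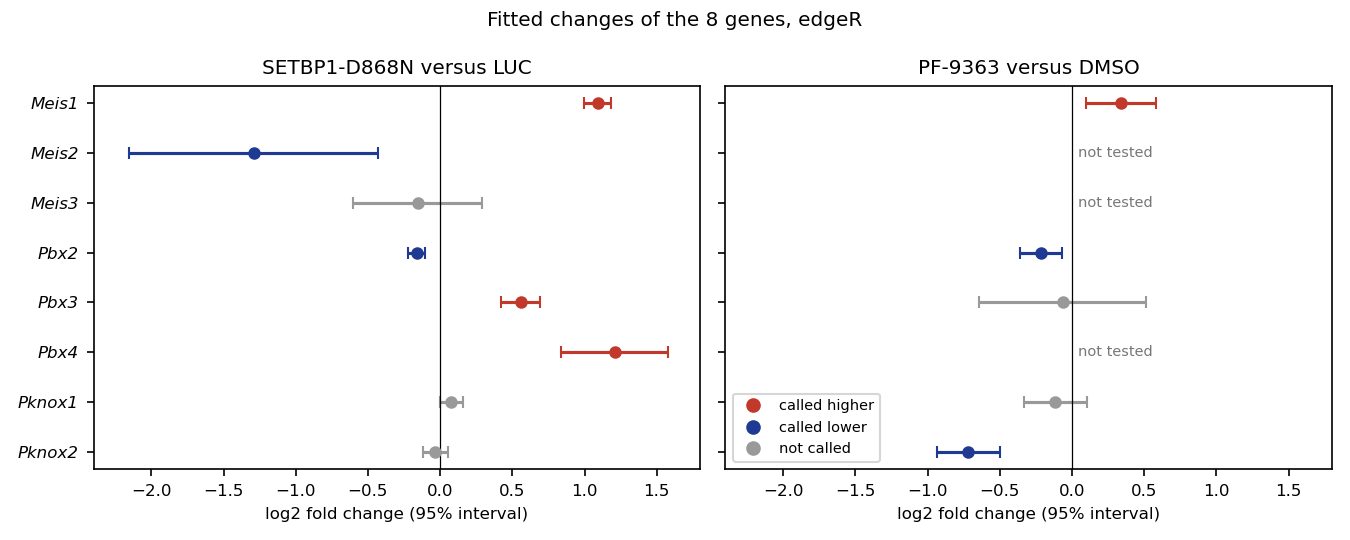
Log2 fold change with its 95% interval (horizontal axis) for each gene in each comparison, coloured by the edgeR call at an adjusted p under 0.05. Meis1 has a change of 1.09 in the first comparison and 0.34 in the second, and Pknox2 has −0.034 and −0.72.

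Pknox2 was the member with the clearest difference. DMSO libraries 1 to 4 had 974, 972, 1020 and 1159 counts, or 96.6, 97.0, 95.5 and 105 CPM. PF-9363 libraries 1 to 4 had 680, 539, 308 and 475 counts, or 70.0, 69.5, 47.9 and 51.5 CPM. The groups did not overlap, as for 70.3% of all genes tested, and within PF-9363 libraries 1 and 2 lay above 3 and 4. The mean went from 98.6 ± 4.43 to 59.7 ± 11.7 CPM (SD, n = 4), and the gene fell by 0.72 on the log2 scale (SE 0.10, 95% interval −0.93 to −0.50, edgeR adjusted p 5.63e-06). Of all genes, 46.3% changed more.

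Meis1 was at 19.8, 19.0, 23.5 and 25.1 CPM with DMSO and at 25.4, 23.1, 29.6 and 32.6 CPM with PF-9363, so that PF-9363 library 2 lay below DMSO 3 and 4. The log2 fold change was 0.34 (SE 0.12, 95% interval 0.094 to 0.58, edgeR adjusted p 0.012), and 71.6% of genes changed more. The call was lost with scaling by library size alone (0.11, edgeR adjusted p 0.405) and without DMSO 1 (adjusted p 0.0504), DMSO 2 (0.0527) or PF-9363 4 (0.0699).

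Pbx2 was at 88.2, 87.9, 77.7 and 93.9 CPM with DMSO and at 72.3, 79.9, 71.6 and 75.8 CPM with PF-9363. DMSO 3 lay below PF-9363 2, and the log2 fold change was −0.21 (SE 0.072, edgeR adjusted p 0.00901), or −0.44 with scaling by library size alone. Gpsm3, which shares exon bases with Pbx2, moved the other way here, rising by 0.48 (SE 0.079, edgeR adjusted p 4.46e-06).

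Pbx3 had 43, 25, 30 and 38 counts with DMSO and 45, 15, 21 and 23 with PF-9363, and its groups overlapped. The log2 fold change of −0.063 had a wide 95% interval of −0.64 to 0.52 (edgeR adjusted p 0.846), and changes within that interval were not resolved at this depth. Its sign was positive without DMSO 1, PF-9363 2 or PF-9363 4. Pknox1 was at 27.0, 28.0, 24.5 and 23.3 CPM with DMSO and at 26.7, 22.7, 21.5 and 23.5 CPM with PF-9363, with a log2 fold change of −0.12 (95% interval −0.33 to 0.10, edgeR adjusted p 0.321). Scaling by library size alone made it a lower call (−0.35, edgeR adjusted p 0.00522).

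Of the 3 untested genes, Pbx4 had 11, 14, 13 and 10 counts with DMSO and 4, 2, 0 and 8 with PF-9363. Its means were 1.15 ± 0.207 and 0.384 ± 0.364 CPM, and the groups did not overlap, as for 70.3% of all genes tested. The gap was smaller than counting error, with DMSO 4 at 0.907 CPM (10 counts) and PF-9363 4 at 0.868 CPM (8 counts). A fit without the expression filter gave a log2 fold change of −1.47 (edgeR adjusted p 0.0256, SE 0.58). Leaving out a library brought Pbx4 past the filter in 5 fits, with log2 fold changes of −2.14 to −1.11. It was called lower in the fits without DMSO 4 (edgeR adjusted p 0.0176), PF-9363 1 (0.0383), PF-9363 2 (0.0483) and PF-9363 4 (0.00409), and missed the threshold without PF-9363 3 (0.0554). In these 5 fits Pbx4 passed the filter only through DMSO libraries, where it was higher. The filter thus favoured a lower call, and these fits are no separate support for a fall. Meis3 had 1, 1, 1 and 5 counts with DMSO and 6, 8, 4 and 14 with PF-9363. On the scale of scaled CPM every PF-9363 library was above every DMSO library, as for 34.0% of all genes tested. Here too the gap was smaller than counting error. It lay between DMSO 4 at 0.454 CPM (5 counts) and PF-9363 1 at 0.618 CPM (6 counts). The unfiltered fit gave 2.23 (SE 0.72, edgeR adjusted p 0.00520) on these few counts. Meis2 had 0, 2, 0 and 0 counts with DMSO and 2, 1, 3 and 4 with PF-9363, near or below the limit of counting, and no fold is given.

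Levels of different genes were compared per kilobase of exon, since longer transcripts yield more counts (the plot of the order of the 8 genes by level). Pbx2 had the highest mean in every group, at 24.4 ± 0.311 CPM per kb with LUC, 21.8 ± 0.153 with SETBP1-D868N, 23.9 ± 1.85 with DMSO and 20.6 ± 1.05 with PF-9363. Pknox2 and Pknox1 followed at 5.71 ± 0.244 and 5.45 ± 0.0581 CPM per kb with LUC, and with SETBP1-D868N they overlapped. In the second experiment, Pknox2 and Pknox1 were at 9.54 ± 0.429 and 3.71 ± 0.313 CPM per kb with DMSO. The experiments differ in RNA input, library preparation and depth, and the wider separation there was not tested against the first. Meis1 had rank 4 in all groups, at 2.36 ± 0.0772 CPM per kb with LUC and 5.02 ± 0.215 with SETBP1-D868N, and at 2.08 ± 0.279 with DMSO and 2.63 ± 0.405 with PF-9363. With PF-9363 its libraries overlapped those of Pknox1, at 3.40 ± 0.320 CPM per kb. Pbx3, Pbx4 and Meis3 were lower, Meis2 was the lowest, and neighbours overlapped from Pbx3 to Pbx4 with DMSO and from Pbx3 through Meis3 and Pbx4 to Meis2 with PF-9363. Taking the longest transcript as the length gave the same order of means but for an exchange of Pknox1 and Pknox2 with SETBP1-D868N. The closeness of these 2 genes in the first experiment rested on the length. By longest transcript Pknox2 and Pknox1 were at 16.3 ± 0.694 and 8.89 ± 0.0948 CPM per kb with LUC. With SETBP1-D868N they were at 15.9 ± 0.627 and 9.38 ± 0.324, and in neither group did their libraries overlap. The lead of Pbx2 over Pknox2 with DMSO rested on the length as well. By longest transcript the levels were 28.3 ± 2.19 and 27.1 ± 1.22 CPM per kb, their libraries overlapped, and in DMSO 3 Pknox2 (26.3) lay above Pbx2 (25.3).

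**Figure D3:**
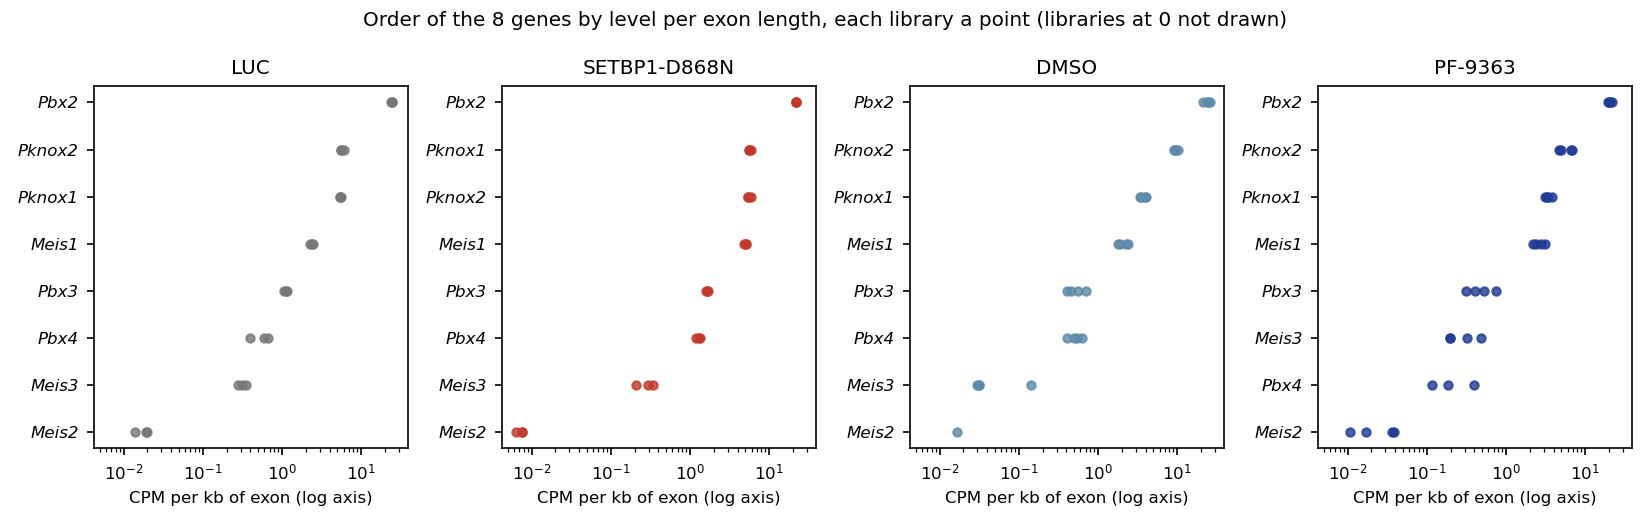
CPM per kb of exon (horizontal log axis) for the 8 genes ordered by group mean, 1 panel per group, with a point per library; libraries at 0 are not drawn. Pbx2 is at the top and Meis2 at the bottom of every panel, and Meis1 has rank 4.

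Within the MEIS family, Meis1 made up 87.7 ± 1.29% of the level per kb with LUC and 94.6 ± 1.28% with SETBP1-D868N (SD, n = 3). It made up 97.2 ± 1.98% with DMSO and 89.2 ± 3.41% with PF-9363 (SD, n = 4). In each experiment the groups did not overlap, and the lowest share in any library was 85.8%, in PF-9363 4. In the second experiment the rest came from Meis3, at 1 to 14 counts a library, and Meis2, at 0 to 4. Both were below the filter on low counts, so the difference in share there rests on few counts and was not tested. MEIS transcripts in these cells were thus mostly those of Meis1, with Meis3 as the next.

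Meis1 and its HOX partner gene Hoxa9 did not move by the same amounts. Per kilobase, Hoxa9 was below Meis1 in LUC libraries, with ratios of Hoxa9 to Meis1 of 0.214, 0.171 and 0.225, and above it in SETBP1-D868N libraries, with 1.62, 1.60 and 1.44. In the second experiment the ratio was 8.52, 7.70, 7.44 and 5.74 with DMSO and 0.550, 0.780, 0.497 and 0.458 with PF-9363. The 2 group ranges were far apart in each experiment. With PF-9363, Hoxa9 went from 15.1 ± 1.49 to 1.46 ± 0.169 CPM per kb, while the Meis1 level was 2.08 ± 0.279 and 2.63 ± 0.405. These ratios do not depend on scaling between libraries, though their size depends on the exon length used.

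**Figure D4:**
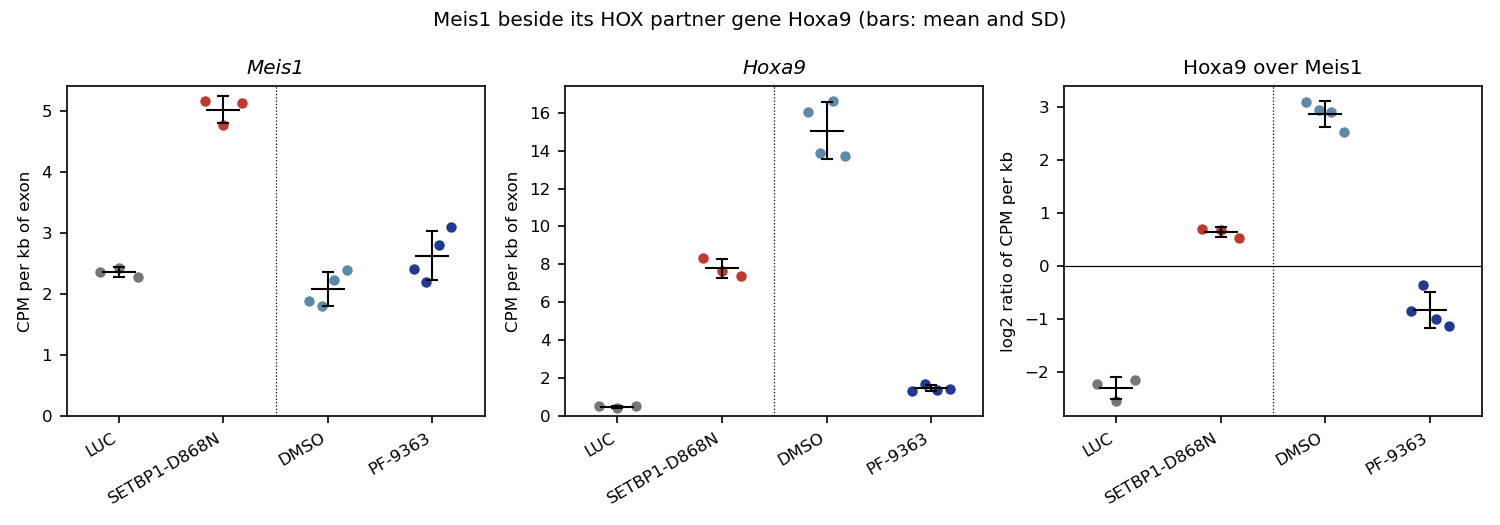
CPM per kb of exon of Meis1 and Hoxa9 (left and middle, axes from 0) and the log2 ratio of Hoxa9 to Meis1 (right) by library, with bars for the mean and SD of each group. The log2 ratio is −2.31 with LUC, 0.63 with SETBP1-D868N, 2.86 with DMSO and −0.84 with PF-9363.

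HOX proteins are the partners of these cofactors. Of 21 genes of the A and B clusters, 11 were tested with SETBP1-D868N, and 8 were higher and 0 lower. Over all genes tested, 24.5% were called higher and 22.7% lower. The summed level of the 21 genes was 15.4 to 17.0 CPM with LUC and 79.2 to 87.2 CPM with SETBP1-D868N. With PF-9363, 8 were tested, and 0 were higher and 7 lower, where 36.6% and 39.4% of all genes were so called. The sums were 158 to 172 CPM with DMSO and 33.8 to 38.4 CPM with PF-9363. None of the 18 genes of the C and D clusters passed the filter, and their summed level was at most 0.325 CPM.

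Among 10 further genes, of other TALE homeobox proteins and of the PBX-binding protein Pbxip1, 3 passed the filter in each comparison. With SETBP1-D868N, Tgif2, a repressor of TGF-beta responses, was higher by 0.32 (SE 0.087, edgeR adjusted p 0.00948). Pbxip1, which keeps PBX from HOX proteins and DNA, fell from 142 ± 3.70 to 122 ± 1.66 CPM, or in log2 fold change −0.22 (edgeR adjusted p 4.67e-05, SE 0.029). With PF-9363, Pbxip1 rose by 1.41 on the log2 scale (edgeR adjusted p 3.12e-18, SE 0.061). Tgif1, a TALE repressor, rose from 18.9 ± 1.94 to 61.0 ± 7.67 CPM with PF-9363 (log2 fold change 1.69, SE 0.10, edgeR adjusted p 7.98e-15). The Irx genes and Mkx were below the filter in both experiments.

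Of 15 genes described elsewhere as targets of MEIS1 or HOXA9 in blood progenitors, 11 were higher and 3 lower with SETBP1-D868N. Over all genes tested, 24.5% were called higher and 22.7% lower. The median log2 fold change of the 15 genes was 0.27, against 0.0043 over all genes. Mef2c, a myeloid and lymphoid transcription factor, went from 28.0 ± 1.06 to 57.5 ± 2.90 CPM, or in log2 fold change 1.04 (edgeR adjusted p 1.42e-08, SE 0.045). Myb, a factor of progenitor growth, rose by 0.82 (SE 0.033, edgeR adjusted p 8.96e-09). Flt3, a receptor of progenitors and often named as a MEIS1 target, was lower, by a log2 fold change of −0.29 (edgeR adjusted p 0.00775, SE 0.077), as was the pseudokinase gene Trib2 (−0.42). With PF-9363, 2 of the 15 were higher and 11 lower (median −0.75, against −0.038), where 36.6% and 39.4% of all genes were so called. Myb, which was higher with SETBP1-D868N, had the largest of these changes and went from 314 ± 17.8 to 47.7 ± 14.5 CPM (log2 fold change −2.71, SE 0.20, edgeR adjusted p 1.06e-05). Mef2c (−2.16), Trib2 (−1.36) and Sox4 (−1.35) also fell, while Bcl2, an inhibitor of cell death, and Epas1, a hypoxia factor, rose by 2.11 and 1.62. The value of Meis1 in the same libraries was 0.34.

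Of 14 genes of the menin, KMT2A, DOT1L and MYST complexes, 7 were higher and 1 lower with SETBP1-D868N, each higher call by 0.18 or less on the log2 scale, where 47.2% of all genes were called. With PF-9363, 9 were higher and 3 lower, where 76.0% of all genes were called. The median log2 fold changes of the 14 genes were 0.070 and 0.36, against 0.0043 and −0.038 over all genes. Men1, the gene for menin, fell from 66.8 ± 8.19 to 27.4 ± 4.04 CPM (log2 fold change −1.28, SE 0.11, edgeR adjusted p 7.72e-11), and Psip1, which tethers menin and KMT2A to chromatin, fell by 0.92 (SE 0.084, edgeR adjusted p 5.94e-11). Among the 9 higher genes, Kmt2a rose by 1.16 (SE 0.096, edgeR adjusted p 4.06e-10). Kat6a, a MYST gene, rose by 0.97 (SE 0.069, edgeR adjusted p 2.81e-13) and Aff4 by 0.93 (SE 0.072, edgeR adjusted p 2.83e-12).

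Markers of other cell types moved in the same libraries. With SETBP1-D868N, 6 of 6 neutrophil markers and 5 of 6 monocyte and macrophage markers were lower. Over all genes tested, 24.5% were called higher and 22.7% lower. The monocyte and macrophage markers summed to 1140 to 1170 CPM with LUC and 810 to 861 CPM with SETBP1-D868N. Of 6 mast cell and basophil markers 2 were higher and 4 lower, with sums of 3840 to 4040 and 3300 to 3490 CPM, and the mast cell tryptase gene Tpsb2 fell by 1.86 on the log2 scale (edgeR adjusted p 2.18e-05). With PF-9363, 36.6% of all genes tested were called higher and 39.4% lower. The 6 monocyte and macrophage markers (5 higher, 1 lower) summed to 1160 to 1300 CPM with DMSO and 3110 to 3710 CPM with PF-9363. The 6 mast cell and basophil markers (5 higher, 0 lower) summed to 909 to 1170 and 3940 to 4910 CPM. Erythroid and megakaryocyte markers, of which 3 were tested and 2 were higher, summed to 39.3 to 46.7 and 209 to 231 CPM, mostly from Itga2b. The B cell receptor gene Cd79b was lower, at 7.71 ± 1.65 CPM with DMSO and 0.0542 ± 0.108 with PF-9363 (edgeR adjusted p 4.37e-13). The part of these cell types in the values of the 8 genes was not tested.

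For the 5 members tested in both experiments, the genes of nearest pattern were found among 9344 genes, by the root mean square difference of log2 CPM centred within each experiment over 14 libraries. All libraries of an experiment share its 2 groups, so likeness mainly reflects a similar pair of group differences. Nearest to Meis1 were Ppm1e (0.184), Slc39a8 (0.194) and Calcrl (0.225), and to Pknox2 were Gtf2b (0.0838), Lrmp (0.0844) and Vrk1 (0.0854). The nearest to Pbx2 were Irf2bp2 (0.0456), Ptpn1 (0.0460) and Mbp (0.0489), and to Pknox1 Spast (0.0505), Atf2 (0.0513) and Nfx1 (0.0540). Pbx3, with its noisier counts, had Wdr55 (0.185), Enoph1 (0.216) and Pwp2 (0.222). These neighbours depended on the libraries used: within single experiments 0 or 1 of the 3 genes reappeared for each member.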

How the data were processed

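For each experiment the authors deposited 1 table of counts by gene symbol, which the labels describe as raw. STAR and DESeq2 and the builds GRCm38 and mm10 are named in the submitters' processing notes. The counting program, annotation and strand handling are not given in the sources used here. The first experiment used 500 ng of RNA and the second 100 ng, with different library preparation, per the labels' protocols. Each experiment was fitted alone in R 4.3.3: filterByExpr of edgeR 4.0.16 (minimum count 10, minimum total 15), TMM scaling, and the robust quasi-likelihood test with the group as single factor, checked on simulated data. P-values were adjusted over all genes tested (Benjamini-Hochberg, threshold 0.05). Standard errors are the absolute log2 fold change over the square root of F. Printed CPM use totals of tested genes. Lengths, coordinates and overlaps came from GENCODE M21. Alternatives included DESeq2 1.42.0 and limma 3.58.1. The 8 genes are named whatever they showed. From other lists, up to 4 called genes of largest change with at least 5 CPM were named. The members and lists were chosen with earlier results of these data known.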

Additional observations from a re-analysis of the deposited data

Results flagged for a closer look

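In 18 groups of 4 libraries, 1 library lay far from the other 3 in 3 cases. A chance rate of about 1 in 20 groups holds for continuous values only. The Meis2 and Meis3 flags arose because the other 3 DMSO libraries had equal counts, so that rate does not apply to them. DMSO 4 had the highest Pknox2 level of its group, at 105 CPM. DMSO 4 also held the highest Meis3 level among DMSO libraries, 0.454 CPM from 5 counts against 1 count in each of the others. DMSO 2 had 0.200 CPM of Meis2, from 2 counts, where the other DMSO libraries had 0.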

How the results depend on the processing

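Calls of Meis1, Pbx2, Pbx3 and Pbx4 with SETBP1-D868N and of Pbx2 and Pknox2 with PF-9363 held in direction and threshold under every alternative run. With SETBP1-D868N, library-size scaling gave Pknox1 0.13 and Pknox2 0.015, and DESeq2 gave Meis2 −1.31. The number of members called lower was 1 with DESeq2 and 1 with a mean count of at least 10, which drops Meis2. Leaving out single libraries gave −1.425 to −1.20 for Meis2, −0.31 to 0.018 for Meis3, −0.073 to 0.0025 for Pknox2, and 1 to 2 members lower. With PF-9363, library-size scaling gave Meis1 0.11 (0 members higher) and Pknox1 −0.35, and without the filter 2 members were higher. Leaving out single libraries gave 0.25 to 0.43 for Meis1, −0.35 to 0.11 for Pbx3, and 0 to 1 members higher. The causes were not tested. Same-numbered libraries did not deviate together (r −0.0968 to 0.00753), and 0 of 7 found their best match in their own number. With the replicate number as a block, 3416 genes were higher and 3224 lower with SETBP1-D868N, and 4885 and 5239 with PF-9363. No member's call changed under the block. Depth limits the second experiment, where 3 members were not tested.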

Other observations

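A gene on the opposite strand of Meis1, Gm16140, shares 896 of its exon bases. It had 19, 24 and 19 counts with LUC and 35, 27 and 42 with SETBP1-D868N, or 0.70 in log2 fold change (edgeR adjusted p 0.0442, SE 0.26). In the second experiment it held 0 to 6 counts in each library. Gm37818, on the same strand as Meis1, shares 1029 exon bases (9.77%) with it. Its counts were 5 to 13 with LUC and 8 to 18 with SETBP1-D868N (log2 fold change 0.58, SE 0.47, edgeR adjusted p 0.342), and 0 to 8 in the second experiment. Strand handling is not given in the sources used here, so counts of Gm16140 cannot be told apart from reads of Meis1. How reads in the bases shared with Gm37818 were assigned is not given in those sources either. Summed over the 8 genes, the level per kb was 39.9 ± 0.300 CPM per kb with LUC, 41.3 ± 0.309 with SETBP1-D868N, 40.3 ± 2.23 with DMSO and 33.4 ± 1.69 with PF-9363.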
